A study of Mus musculus with 14 samples.

Results

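Foxp1, Foxp2, Foxp4 and Foxb1 are 4 forkhead transcription factor genes among the 31054 genes counted in every library, and all 4 were found by their symbols. Their UMIs (unique molecular identifiers, 1 per captured RNA molecule) were followed across neuron classes, stages and genotypes in 14 single-cell RNA sequencing libraries of Atoh1-lineage cells from C57BL/6J mice. At E14.5 and at E18.5, hindbrain cells came from 3 control embryos and 3 Atoh1S193A/- embryos, with 1 embryo per library and a littermate control beside each mutant. At P5, 2 control libraries came from microdissected pontine nuclei (PN), each pooled from several pups. The controls were Atoh1 Cre/+; Rosa lsl-TdTomato/+ and the mutants Atoh1 Cre/S193A; Rosa lsl-TdTomato/+. All groups thus carried 1 Atoh1 copy replaced by Cre, so the controls had 1 functional copy and were not wild type. Cre under Atoh1 control switched on a permanent TdTomato label, and TdTom+DAPI- cells were sorted, so a sorted cell could be any descendant of an Atoh1-expressing cell. The 14 libraries included no P5 mutants.

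Forkhead factors bind DNA through a winged helix domain. FOXP1, FOXP2 and FOXP4 form homodimers and heterodimers through a leucine zipper and act mostly as repressors. FOXP1 and FOXP2 are known to bind the corepressor CtBP1, and Foxp factors to work with the NuRD deacetylase complex. FOXP2 is known for its role in human speech and in cerebellar and striatal circuits, and FOXP1 for the sorting of spinal motor neurons into columns. FOXB1 marks parts of the embryonic hindbrain, midbrain and hypothalamus, including the mammillary body. Atoh1, a basic helix-loop-helix factor of the rhombic lip, gives rise to granule neurons, PN neurons, cerebellar nuclei neurons and other excitatory neurons of the hindbrain. Foxp1 lies on chromosome 6, 98925338 to 99522721, on the minus strand of GRCm38 (GENCODE M21). Foxp2 lies on the plus strand of the same chromosome at 14901349 to 15441977, Foxp4 on the minus strand of chromosome 17 at 47867133 to 47924645, and Foxb1 on the minus strand of chromosome 9 at 69757710 to 69760940. All 4 are annotated as protein coding.

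After filtering, 80250 cells remained, between 3248 and 8726 per library, with median depths of 12010 to 20913 UMIs per cell. In the sums below 1 library held all kept cells of 1 embryo or pool, and levels are counts per 1000000 UMIs (CPM), which are not scaled by gene length and are compared between samples or cells but not between genes. Pairs of libraries shared 13 to 67 cell barcodes, at most 0.624% of the smaller library. The missense S193A allele leaves Atoh1 transcripts in place, so their level does not check the genotype labels. Atoh1 was at 137, 55.0 and 57.5 CPM in the E14.5 controls and at 144, 86.2 and 100 CPM in the mutants, and the groups overlapped. The second litter pair of E14.5 stood apart from the other pairs in both genotypes. Cluster 15, for example, the cluster highest in Foxp2, held 4.77% of the cells of control 2 and 4.11% of mutant 2, against 1.70% to 3.17% in the other 4 libraries. The reporter transcript, counted as WPRE, averaged 322 CPM in the E14.5 controls, 339 CPM in the E18.5 controls and 358 CPM at P5.

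Over all sorted cells, Foxp2 was the 1 member called between the embryonic stages among the 3 that passed the filter on low values, and Foxb1, which did not pass it, was called with no filter. The level of Foxp2 was 57.1, 95.6 and 67.2 CPM in the E14.5 controls and 15.7, 20.8 and 15.1 CPM in the E18.5 controls. The stages did not overlap, and Foxp2 fell by 2.17 on the log2 scale (SE 0.23, n = 3 and 3, adjusted p = 0.00067 by edgeR's quasi-likelihood test over all genes tested). Calls required an adjusted p under 0.05 and an absolute log2 change over 0.25. In this comparison 51.6% of all genes tested were called, 2724 higher and 2583 lower at E18.5, so a call by itself was common. The P5 libraries came from another dissection and were not tested against the embryos; they held 1.70 and 1.76 CPM of Foxp2. Of the E14.5 controls, libraries 1 and 2 were counted with another Cell Ranger version than all other libraries, and the part of that difference was not tested. In such sums of a mixed tissue fewer cells of a type and less RNA per cell cannot be told apart.

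Foxp1 was at 60.8, 71.3 and 59.9 CPM at E14.5 and at 70.4, 74.3 and 70.4 CPM at E18.5, and the stages overlapped. The difference was 0.08 on the log2 scale (SE 0.09, adjusted p = 0.47 by edgeR), and at P5 Foxp1 was at 37.3 and 38.7 CPM. Foxp4 was at 7.22, 10.2 and 7.99 CPM at E14.5, at 11.8, 11.0 and 10.8 CPM at E18.5 and at 13.1 and 12.9 CPM at P5. All E18.5 values of Foxp4 lay above those of E14.5, but the difference of 0.31 (SE 0.15, adjusted p = 0.11 by edgeR) missed the threshold. Without control 2 of E14.5 it was 0.47 and passed (adjusted p = 0.018), and with a mitochondrial limit of 10% in place of 5% it was 0.04. Foxb1 had a UMI in fewer than 10% of the cells of either stage and was not tested with the filter. It was at 17.0, 29.7 and 13.3 CPM at E14.5 and at 0.54, 0.12 and 1.13 CPM at E18.5, with no overlap. With no filter on low genes its difference was -5.12 on the log2 scale (SE 0.51, adjusted p = 2.5e-05 by edgeR), where 31.8% of all genes with a UMI were called. At P5 the libraries held 1.42 and 1.65 CPM of Foxb1.

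**Figure D1:**
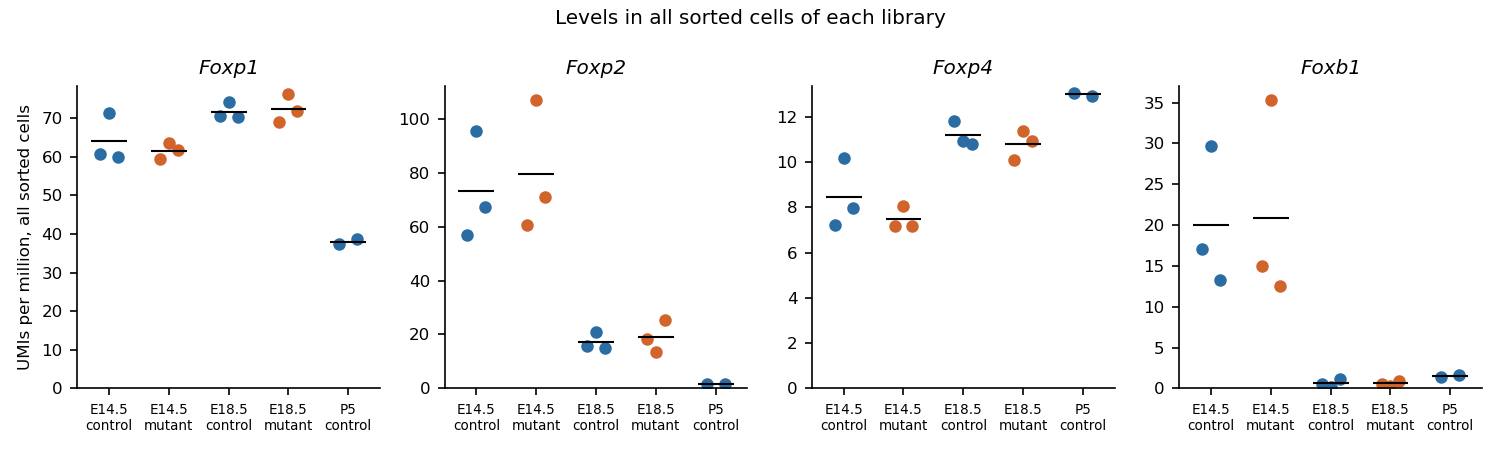
CPM of each gene over all sorted cells (linear axes from 0), with 1 point per library and a bar at the group mean, in E14.5 and E18.5 controls (blue), Atoh1S193A/- embryos (orange) and P5 controls. Foxp2 and Foxb1 are high at E14.5, where 1 control (95.6 CPM of Foxp2) and 1 mutant (107 CPM), both of the second litter pair, lie above the others.

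Related genes from fixed lists were read in the same stage comparison, where 51.6% of all genes tested were called, so no count below is read as particular to its list. Of 40 other forkhead genes 8 passed the filter, of which 4 rose and 1 fell, with a median difference of 0.32 against 0.01 over all genes tested. With no filter 37 were tested, 7 rose and 8 fell, and the median was -0.24 against 0.03, so the direction of this list depends on the filter. Foxm1, which drives cell division genes, rose by 1.83 on the log2 scale, Foxn2 by 1.49, Foxo3, a target of insulin signaling, by 1.38 and Foxj3 by 0.34, whereas Foxn3 fell by 0.57. Of 16 genes for FOXP corepressors and partners 14 were tested, and Rbbp7, Gatad2b, Chd4, Gatad2a and Mta1 of the NuRD complex rose by 0.34 to 0.56. Hdac2 and Mbd3, of the same complex, fell by 0.38 and 0.32, and the median of the list was 0.07. Of 7 genes reported as FOXP2 targets 3 were tested, and Cntnap2, a neurexin family adhesion gene, fell by 0.96 (SE 0.26, adjusted p = 0.018 by edgeR), with a median of 0.08. The call of Cntnap2 was lost without E18.5 control 1 (adjusted p = 0.057) or control 2 (0.054), and that of Foxj3 without control 1 (0.051).

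Cells of each stage were then clustered without the members, Atoh1, sex-linked and mitochondrial genes and the reporter, which gave 33 clusters at E14.5, 33 at E18.5 and 31 at P5. A cluster is named "X-like" only where its marker genes allowed it and is otherwise described by number and leading genes. Levels across clusters are descriptions with no test, since the clusters were made from the same cells. The marker genes quoted below for single clusters were chosen after the cluster means had been seen.

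Foxp2 at E14.5 was concentrated in a few neuron classes. Its highest cluster, 15, was led by Nr4a2, Fxyd7, Irx4 and Tenm1, and Foxp2 reached 941, 874 and 850 CPM in the control libraries. Cluster 21, led by C1ql1, Sst and Dlk1, followed with 486, 546 and 516 CPM. Both clusters stood clear of all others in every control library, and cluster 15 was 34.2-fold above the median cluster (26 CPM). Cluster 15 held 31.8% ± 3.4 (SD, n = 3) of all Foxp2 UMIs in 3.42% of the cells, and cluster 21 held 11.7% ± 3.5 in 1.95%. The orphan nuclear receptor gene Nr4a2 was at 623 CPM in cluster 15 and 614 CPM in cluster 21, against 50.7 CPM over all control cells. Lhx9, a LIM homeobox gene of Atoh1-lineage neurons, was at 471 and 856 CPM in the same clusters, and Slc17a6, the vesicular glutamate transporter gene, at 175 and 178 CPM. Hoxb5 was near 8 CPM in both, against 117 CPM over all cells.

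Cluster 10, led by Pax5 and Adarb2, had Foxp2 at 368, 301 and 190 CPM. The inhibitory neuron-like cluster 6 had 142, 192 and 215 CPM, and these neighbours in the order overlapped. In cluster 6 the GABA synthesis gene Gad2 was at 264 CPM, and the reporter WPRE at 54.9 CPM against 322 CPM over all control cells. Cluster 28, with Tcf7l2 and Shox2 among its leading genes, had Foxp2 at 27.7 to 227 CPM and WPRE at 31.8 CPM. The part of weakly labelled cells in these Foxp2 levels was not tested. At the other end of the order, Foxp2 was at 3.62 CPM in cluster 1, led by Cnr1 and Hoxc4, the lowest of those ranked. The second litter pair was higher in Foxp2 in some clusters that had little of it. In cluster 8 the controls had 8.37, 40.7 and 6.20 CPM and the mutants 2.88, 34.4 and 17.8 CPM, and in cluster 4 they had 6.59, 34.0 and 11.4 CPM and 4.18, 29.3 and 2.26 CPM. In cluster 24, however, control 3 was the highest control (6.76, 24.97 and 35.9 CPM). The part of free RNA in these low values was not tested.

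Foxp1 was spread more evenly. The highest cluster at E14.5 was cluster 8, led by Olig2 and Neurod6, with 305, 338 and 256 CPM in the controls, 5.41-fold above the median cluster (55.5 CPM). It held 19.3% ± 6.0 (SD, n = 3) of Foxp1 UMIs in 4.36% of the cells. Olig2, a helix-loop-helix gene, was at 176 CPM there against 17.2 CPM overall. Cluster 26, with Cbln2 and Mast4 among its leading genes, had Foxp1 at 252, 161 and 130 CPM. The inhibitory neuron-like cluster 6 had 118, 127 and 135 CPM and overlapped with cluster 26. The lowest value, 14.2 CPM, was that of cluster 21, which was second for Foxp2.

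Foxp4 was highest in cluster 15 as well, at 42.9, 40.6 and 32.4 CPM against a median of 7.46 CPM over clusters, a 5.18-fold difference. The astrocyte or radial glia-like cluster 24, led by Hes5 and Fabp7, had 26.4, 28.4 and 23.7 CPM, and these 2 clusters did not overlap with each other or with the next. Clusters 10 (21.1, 22.2 and 11.3 CPM), 21 and 6 followed with overlapping ranges. Cluster 15 held 11.8% ± 2.0 (SD, n = 3) of Foxp4 UMIs.

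Foxb1 had most of its UMIs in 1 cluster. The Lhx2/Lhx9 caudal neuron-like cluster 4, led by Hoxb5 and Tshz2, had 220, 185 and 163 CPM, against a median of 2.11 CPM over clusters, and held 65.8% ± 12.1 (SD, n = 3) of Foxb1 UMIs in 5.62% of the cells. Hoxb5 reached 697 CPM there. Glia-like cluster 24 (71.7, 49.9 and 36.8 CPM), cluster 11, led by Fxyd7 and Arhgdig (33.6, 47.9 and 68.0 CPM), and cluster 18, led by Sst and Pcdh9 (31.0 to 44.1 CPM) came next and overlapped. In glia-like cluster 24, WPRE was at 29.0 CPM while Fabp7 was at 7716 CPM, and the part of weakly labelled cells was not tested.

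Most neighbours in these orders overlapped between control libraries. Of 26 neighbouring pairs among the 27 clusters large enough to rank at E14.5, the ranges were apart in 2 for Foxp1, 3 for Foxp2, 2 for Foxp4 and 1 for Foxb1.

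**Figure D2:**
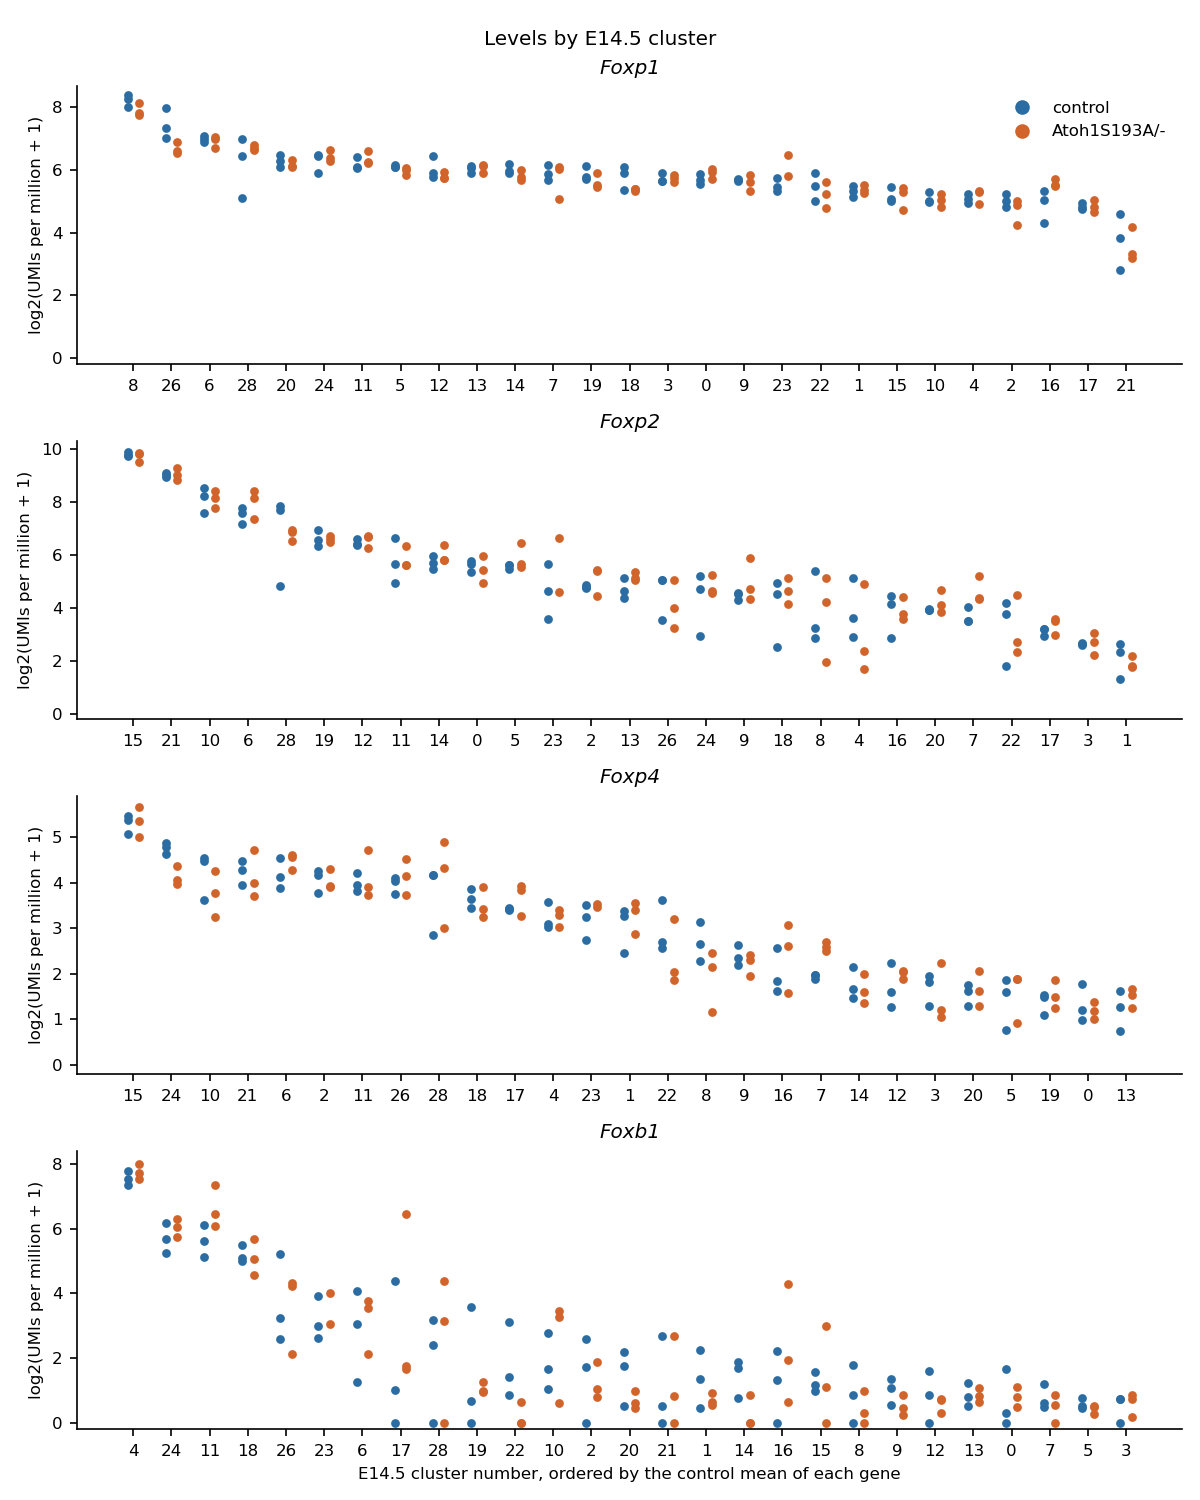
Levels of each gene by E14.5 cluster on a log2(CPM + 1) axis, with 1 point per control (blue) and Atoh1S193A/- (orange) library holding at least 10 cells of the cluster, and clusters ordered by the control mean. Foxp2 has a steep head at clusters 15 and 21, Foxb1 at cluster 4, and Foxp1 declines gradually after cluster 6.

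Detection per cell set clusters 15 and 21 apart for Foxp2 once cells were brought to equal depth. Shares of cells and UMIs per cell pool control and mutant cells, unlike the control CPM above. With each cell thinned to 5000 UMIs, which left out 652 shallower cells at E14.5, 78.0% of cluster 15 cells and 70.8% of cluster 21 cells had a Foxp2 UMI, against 16.7% of all cells and 1.14% of PN differentiated neuron-like cells. Without thinning the shares were 82.5% and 82.6% in the 2 clusters. Clusters 19 and 12, led by Cenpf and by Rfx4, had Foxp2 in 80.9% and 69.8% of their cells without thinning but in 35.0% and 34.1% with it, next to 32.3% in cluster 10 and 31.6% in cluster 6. Their median cells held 2 and 1 Foxp2 UMIs, and most of their cells came from mutants. The median cell of cluster 15 held 10 Foxp2 UMIs and the 90th percentile was 29, while in cluster 21 these were 6 and 20.7. Clusters 6 and 10 were mixed, with a median of 0 Foxp2 UMIs but a 90th percentile of 13 and 14. Foxb1 was detected in 48.9% of thinned cluster 4 cells, 20.3% of cluster 24 and 17.1% of cluster 11, against 0.55% of PN-like cells, taken here as the background. Within the PN-like cells cluster 31 differed, with a Foxb1 UMI in 6.06% of its 66 thinned cells (19.4% of 67 without thinning), against 0.34% to 0.70% in the 4 others. Of these 67 cells 41 came from mutant 3. The median depths before thinning were 22423 UMIs in cluster 4 and 18984 UMIs in PN-like cells. Foxp1 was detected in 21.0% of all thinned cells, and Foxp4 in 13.1% of cluster 15 against 3.95% of all cells.

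The members were also read in the same cells, among thinned cells of clusters 15, 6 and 11. In cluster 15, 10.9% of cells had both Foxp2 and Foxp4, where the product of the single shares was 10.2%, and 10.4% had both Foxp1 and Foxp2 (product 9.65%). In inhibitory neuron-like cluster 6 the shares were 4.17% for Foxp2 with Foxp4 (product 2.69%) and 10.2% for Foxp1 with Foxp2 (product 8.02%). In cluster 11 Foxp2 and Foxb1 were found together in 0.89% of cells (product 2.43%). Cells of 1 cluster come from all libraries, so these shares are descriptions.

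At E18.5 the classes with the highest Foxp2 levels were small. Cluster 22, led by Fxyd7 and Caly, with nearly equal marker scores for cerebellar nuclei neurons (mean z 1.68) and rostral neurons (1.65), had 91.3, 180 and 137 CPM of Foxp2 and held 16.4% ± 9.1 (SD, n = 3) of its UMIs in 1.50% of the cells. Lhx9 was at 194 CPM and Meis2 at 1034 CPM there. Of the PN lineage marker genes, which include Hoxb5, 4 were above their mean over clusters. The cluster was mixed, with a Foxp2 UMI in 21.3% of its cells without thinning, a median of 0 and a 90th percentile of 11. Cluster 29, led by Tcf7l2 and Zfhx3, held 163 cells, none of them from control 3. In the control and mutant libraries that had such cells Foxp2 ranged from 485 to 1048 CPM, and 63.9% of the cluster's thinned cells had a Foxp2 UMI. Mutant 3 gave 79 of the 163 cells. Cluster 25, with 209 CPM ± 131 (SD, n = 3), had a median of only 2490 UMIs per cell and was led by Pfkp, Snhg11 and Meg3. Dividing clusters 10 and 8, led by Cenpf and by Pclaf, had Foxp2 at 38.4 and 37.0 CPM. They were larger, with 4.255% and 4.65% of the cells, and held 13.1% ± 2.2 and 11.6% ± 0.8 (SD, n = 3) of its UMIs.

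Foxp1 at E18.5 was nearly flat, from 38.6 to 105 CPM over clusters, with a median of 74.9 CPM and no neighbouring pair apart. Foxp4 was highest in the shallow cluster 25 (56.5 CPM), then in cluster 22 at 21.2, 21.9 and 22.0 CPM and in the granule neuron-like cluster 0 at 24.8, 21.0 and 16.8 CPM, which overlapped. Foxb1 was left in the astrocyte or radial glia-like cluster 26 (41.7, 25.3 and 44.9 CPM) and in cluster 22 (18.2, 1.10 and 15.7 CPM), with at most 0.28 CPM elsewhere apart from the shallow cluster 25. WPRE in cluster 26 was at 182 CPM.

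At P5 the astrocyte-like cluster 8 carried 82.6% ± 2.4 (SD, n = 2) of Foxb1 UMIs in 3.56% of the cells, at 59.7 and 74.1 CPM. It was led by Aqp4 and Clu, and WPRE there was at 79.3 CPM against 358 CPM over all cells, so how far these cells belong to the labelled lineage was not tested. In cells thinned to 5000 UMIs Foxb1 was seen in 24.8% of cluster 8 and in 1.03% of all cells, with 1319 shallower cells left out. Foxp2 was at 42.6 and 32.0 CPM in cluster 24, led by the collagen gene Col1a1 and by Dcn, and at 15.5 CPM ± 1.4 (SD, n = 2) in oligodendrocyte lineage-like cluster 10. Granule progenitor-like cluster 14 held 19.7% ± 27.0 (SD, n = 2) of the Foxp2 UMIs of P5, and 293 of its 298 cells came from control 2, where Foxp2 was at 20.1 CPM. Foxp1 was highest in cluster 24 too, at 123 and 117 CPM.

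Along the PN lineage the Foxp genes had different courses. Foxp2 was at 20.5, 32.7 and 23.5 CPM in E14.5 PN progenitor-like cells of the controls and at 75.5, 72.0 and 68.4 CPM in intermediate progenitor-like cells. It was lower in the later states, with means of 29.4 CPM ± 6.0 (SD, n = 3) for migrating neuron-1-like, 6.06 ± 1.76 for migrating neuron-2-like and 4.76 ± 3.32 for differentiated cells. At E18.5 it was at 12.2 CPM ± 5.1 in migrating neuron-like cells and at 0.88 to 3.75 CPM in the states ePN1, ePN2 and ePN3. At P5 it was at no more than 1.26 CPM in the 5 PN subtype-like clusters, which held 5904 cells. These were PN1-, PN4-, PN5- and PN6-like, and none was PN3-like, the subtype that the study matched to ePN1. A PN2-like cluster of 31 cells was too small to rank. The high Foxp2 values were thus those of intermediate progenitor-like cells, which among the states also had the most Atoh1 (752, 497 and 518 CPM). Atoh1 is among the marker genes that name this state, so its height there is partly built into the name.

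Foxp4 was low in the early states and higher in most, but not all, later ones. It was at 1.52, 1.35 and 1.35 CPM in the progenitor-like, intermediate progenitor-like and migrating neuron-1-like cells of E14.5, while migrating neuron-2-like cells had 2.30 CPM and differentiated cells 8.05 CPM ± 1.62 (SD, n = 3). At E18.5 it was at 6.64 CPM ± 3.19 in migrating neuron-like cells, 6.49 CPM ± 3.83 in ePN1-like, 17.6 CPM ± 2.4 in ePN2-like and 18.7 CPM ± 3.7 in ePN3-like cells. At P5 it was at 13.2 to 15.8 CPM in the PN subtype-like clusters, none of them PN3-like. The E14.5 progenitor-like values (at most 2.05 CPM) and the differentiated values (at least 6.26 CPM) did not overlap. Foxp1 stayed between 32.2 and 66.0 CPM in the embryonic states and between 30.7 and 38.0 CPM at P5. Foxb1 had at most 1.33 CPM in any embryonic state mean of the controls. These means hold few cells of cluster 31, which had 3, 6 and 7 cells in the control libraries with 1 Foxb1 UMI in each library. Only 74 differentiated and 55 migrating neuron-1-like cells came from control 2 of E14.5.

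**Figure D3:**
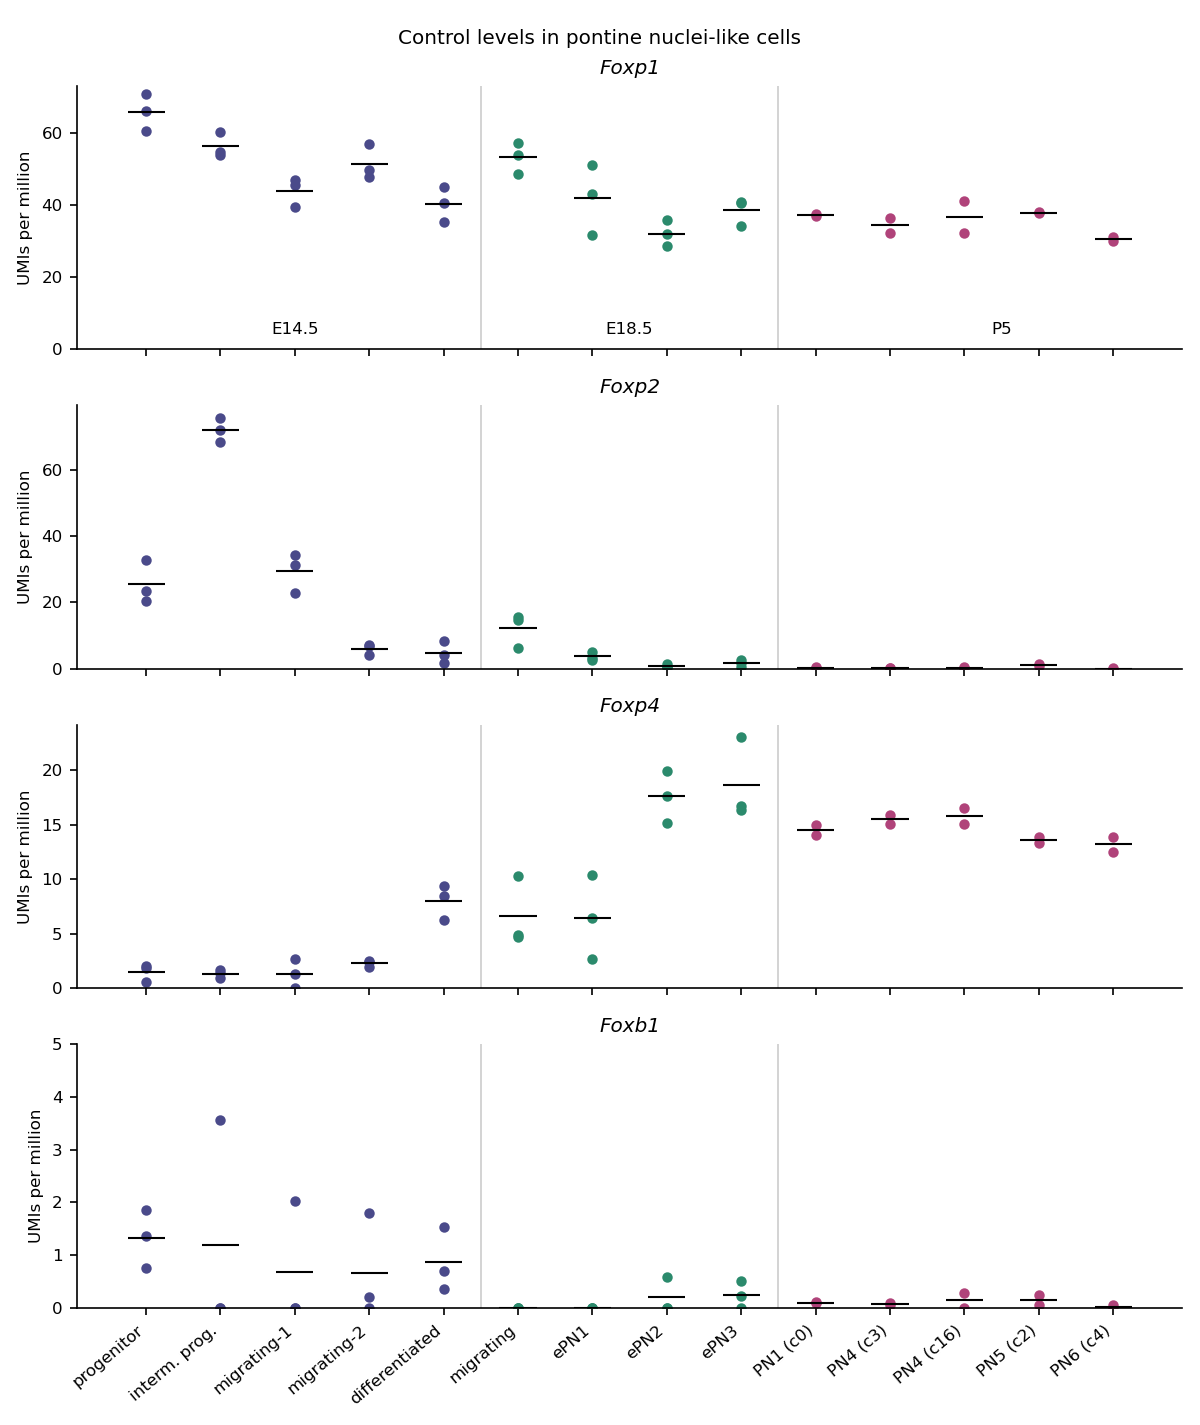
Control levels (CPM, linear axes from 0, each gene on its own scale) in PN-like states of E14.5 and E18.5 and in PN subtype-like clusters of P5, with 1 point per library holding at least 10 cells and a bar at the mean. Foxp2 peaks in intermediate progenitor-like cells at 72.0 CPM, whereas Foxp4 is highest in ePN2- and ePN3-like cells, at 17.6 and 18.7 CPM, and ePN1-like cells have 6.49 CPM.

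The genes whose levels followed each member most closely across 26 E14.5 clusters were named by Pearson's r of log2(CPM + 1) control means among 12200 genes. The clusters share libraries, so r is a description. For Foxb1 the closest was B230323A14Rik (r = 0.96), an antisense gene on the plus strand of chromosome 9, 69758740 to 69830845, which overlaps Foxb1 over 2201 bases from 69758740 to 69760940. It was at 64.0 CPM in cluster 4 and 15.5 CPM in cluster 11. Whether reads of that overlap were split by strand is not given in the sources used here, and whether both genes shared reads was not tested. Unlike Foxb1, B230323A14Rik was not left out of the clustering, and it is among the leading genes of cluster 4. Ppp1r1c was also among the 3 closest genes, at r = 0.76.

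For Foxp4 the closest genes were 1500009C09Rik and the reelin receptor gene Vldlr (both r = 0.91) and Tox2 (r = 0.90). Vldlr, which was in the list of reported FOXP2 targets, was at 51.7 CPM in cluster 15 against 22.7 CPM over all control cells. For Foxp2 they were the forkhead gene Foxj3 (0.81), Dgkk (0.77) and Ccdc82 (0.77), and for Foxp1 the orphan receptor gene Esrrb (0.68), Ccnjl (0.61) and AC129186.1 (0.59). Among the members r was 0.49 for Foxp4 with Foxb1, 0.38 for Foxp2 with Foxp4 and -0.17 for Foxp1 with Foxp2.

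The genotype comparison asked whether partial loss of Atoh1 function altered the 4 genes. At E14.5, controls 1 and 2 but no mutant were counted with Cell Ranger 3.1.0, so version and genotype were partly confounded. The study lists control 1 of E14.5 as female and mutant 1 as male, and the part of sex was not tested. Over 26 fits (all sorted cells of each stage, 17 clusters and 7 PN-like states) 65 of 104 member values passed the filter on low values. Of these 0 were called by edgeR and 0 by DESeq2, 6 (9.23%) had an unadjusted p under 0.05 by edgeR and 4 by DESeq2, and the lowest adjusted p was 0.61. With the replicate block 0 were called and 12 of the 65 had an unadjusted p under 0.05. Under the same block these were 12 of 198 values for other forkhead genes, 25 of 365 for corepressors and partners and 10 of 76 for reported FOXP2 targets. Over all genes they were 4209 of 10241 in E14.5 all sorted cells and at most 985 of 9184 in any other blocked fit. The 12 of 65 pool 4 genes over 26 fits that share embryos. They are not read against these shares of single fits. Of the 65 values 32 were higher and 33 lower in the mutants. Over all genes and fits 3.32% of 252995 values had an unadjusted p under 0.05 and 53 were called. The share of genes called was 0.00976% in E14.5 all sorted cells and 0% in E18.5 all sorted cells, and 17 of the 26 fits had 0%. In the fits with any call it was 0.0109% in E14.5 intermediate progenitor-like cells, 0.00991% in E14.5 progenitor-like cells, 0.0525% in E18.5 migrating neuron-like cells and 0.00981% in ePN3-like cells. In E18.5 clusters 0, 8, 10 and 18 it was 0.0111%, 0.261%, 0.172% and 0.00974%.

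Over all sorted cells Foxp2 was at 60.6, 107 and 71.1 CPM in the E14.5 mutants against 57.1, 95.6 and 67.2 CPM in the same-numbered controls, higher in 3 of 3 pairs, and the difference was 0.08 on the log2 scale (SE 0.25, adjusted p = 0.92 by edgeR). Foxp1 differed by -0.08 (SE 0.09) and Foxp4 by -0.21 (SE 0.15), the latter lower in 3 of 3 pairs (adjusted p = 0.61). At E18.5 the differences were 0.12 (SE 0.24) for Foxp2, -0.00017 (SE 0.07) for Foxp1 and -0.06 (SE 0.08) for Foxp4. The genotype difference did not pass a test of change between the stages for Foxp1, Foxp2 or Foxp4, with interaction terms of 0.10, 0.05 and 0.16 (adjusted p at least 0.88), in a fit where 0% of genes were called. In the clusters highest in Foxp2 the mutants had 733, 912 and 888 CPM for cluster 15 (difference -0.09, SE 0.11) and 453, 523 and 615 CPM for cluster 21 (0.02, SE 0.13), both within the spread between libraries.

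**Figure D4:**
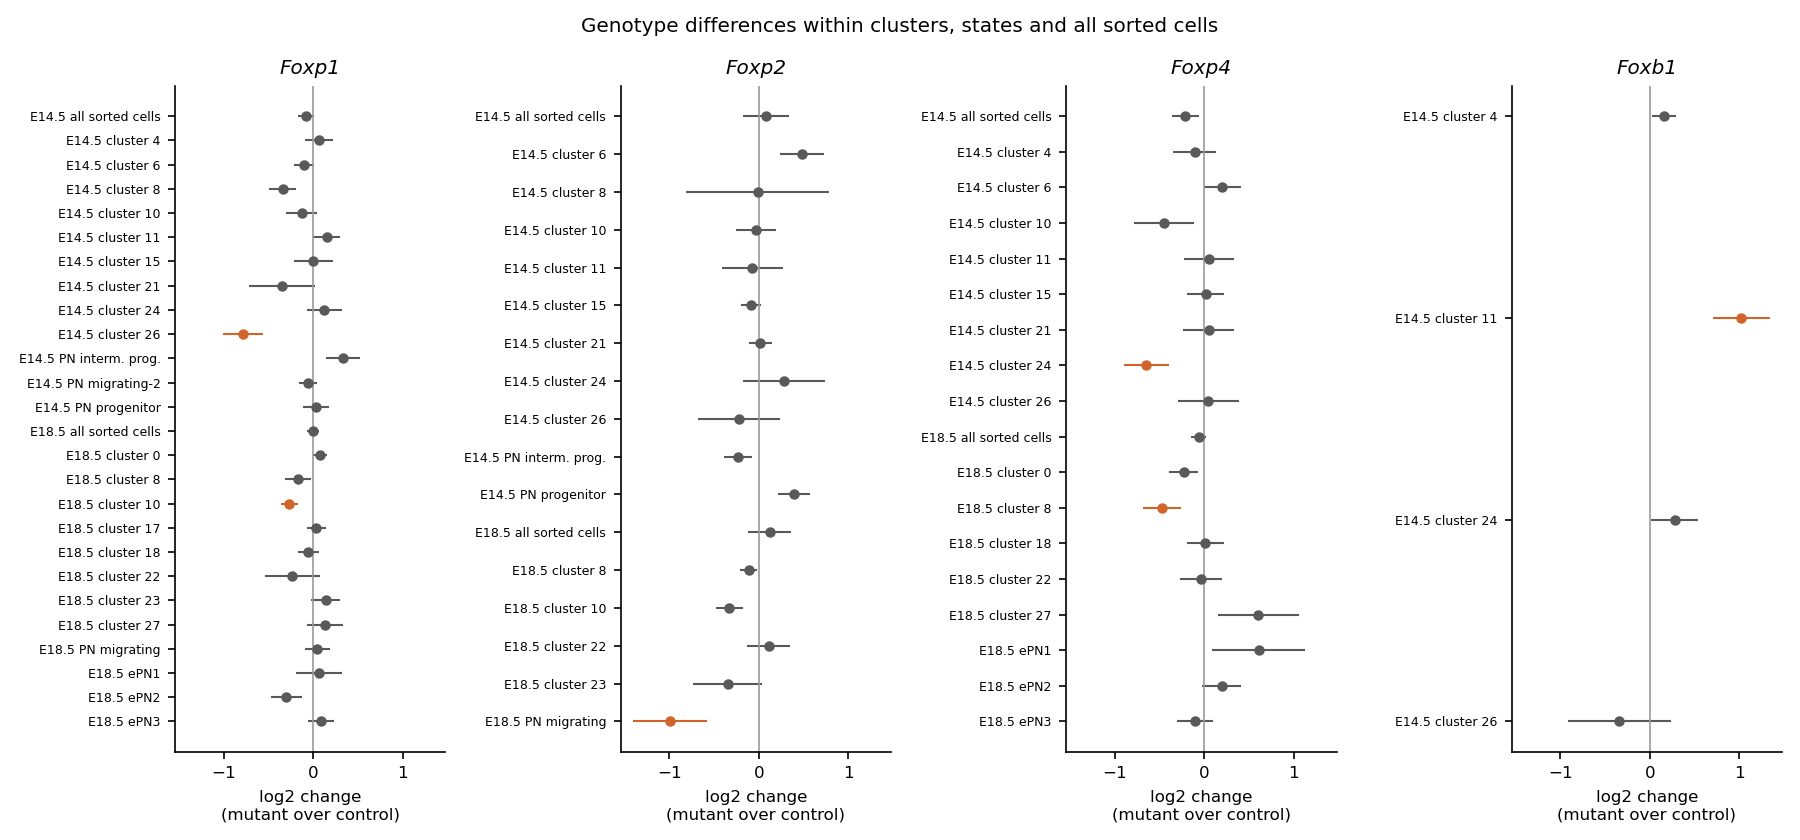
Log2 change of each gene, mutant over control, for the 65 values that passed the filter, with bars of 1 SE from the edgeR fits. The 6 values with an unadjusted p under 0.05 are orange and lie on both sides of 0 and none passed the adjusted threshold.

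The 6 values with an unadjusted p under 0.05 are given with their libraries. Foxb1 in E14.5 cluster 11 was at 33.6, 47.9 and 68.0 CPM in the controls and at 66.6, 161 and 85.8 CPM in the mutants. It was higher in 3 of 3 pairs, the groups overlapped slightly, and the difference was 1.03 (SE 0.32). Leaving out mutant 2 gave 0.57, leaving out the whole second pair, a step added after seeing the data, 0.48, and keeping libraries of Cell Ranger 5.0.1, which leaves control 3 alone against 3 mutants, 0.59. With no filter on low genes this difference was called (1.02, adjusted p = 0.0012 by edgeR), where 0.0861% of genes were called. Foxp1 in E14.5 cluster 26 was at 252, 161 and 130 CPM in the controls and at 97.2, 92.0 and 118 CPM in the mutants, with no overlap and a difference of -0.79 (SE 0.22). Without control 1, which had 25 cells of this cluster, it was -0.54. Within Cell Ranger 5.0.1 it was -0.42, but there the control side was control 3 alone, the lowest of the controls. It too was called with no filter (-0.78, adjusted p = 0.032), where 0.342% of genes were called. Both clusters were mixed over the cells of both genotypes. Foxb1 had a UMI in 21.1% of cluster 11 cells (median 0, 90th percentile 8) and Foxp1 in 44.3% of cluster 26 cells (median 0, 90th percentile 7.3). Whether the share of positive cells or the level per cell differed was not tested.

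Foxp4 in the glia-like E14.5 cluster 24 was at 26.4, 28.4 and 23.7 CPM in the controls and at 19.6, 14.7 and 15.7 CPM in the mutants, with no overlap and a difference of -0.65 (SE 0.25). At E18.5 Foxp4 in cluster 8 was at 9.44, 7.64 and 7.14 CPM against 5.73, 5.75 and 6.70 CPM (-0.47, SE 0.21). Foxp1 in dividing cluster 10 was at 86.9, 87.8 and 92.5 CPM against 69.1, 77.3 and 79.8 CPM (-0.27, SE 0.09), and these groups did not overlap either. Foxp2 in E18.5 migrating neuron-like cells was at 15.5, 14.7 and 6.33 CPM against 8.13, 5.47 and 2.09 CPM, lower in 3 of 3 pairs, with a difference of -0.995 (SE 0.41), or -1.65 without mutant 1. The adjusted p of these 4 values lay between 0.67 and 1.00.

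**Figure D5:**
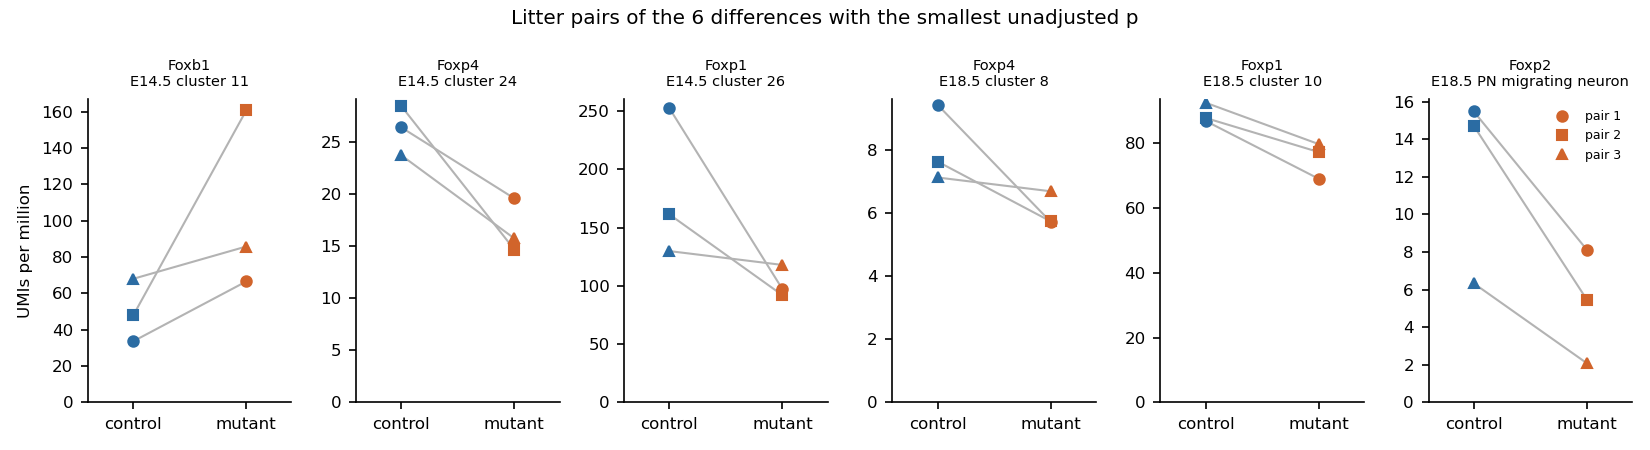
CPM (linear axes from 0) in the 3 litter pairs, with control in blue, mutant in orange and a line joining same-numbered embryos, for the 6 member values with an unadjusted p under 0.05. In the Foxb1 panel the mutant of pair 2, at 161 CPM, lies far above the other 2 mutants.

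In E14.5 progenitor-like cells Foxp2 was at 33.8, 39.9 and 32.2 CPM in the mutants against 20.5, 32.7 and 23.5 CPM, higher in 3 of 3 pairs (0.39, SE 0.18, adjusted p = 1.00 by edgeR). Atoh1 in the same cells was at 164, 175 and 130 CPM in the mutants against 242, 214 and 134 CPM, lower in 3 of 3 pairs. In inhibitory neuron-like cluster 6 Foxp2 was also higher in 3 of 3 pairs (163, 280 and 342 CPM against 142, 192 and 215 CPM, difference 0.48, SE 0.25). That difference was 0.24 without mutant 3, 0.32 without control 1 and 0.73 without mutant 1, and the one in progenitor-like cells was 0.60 without control 2.

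With the cluster makeup held equal across libraries (26 clusters, 94.5% of the cells at E14.5 and 96.7% at E18.5), the E14.5 means were 75.6 CPM ± 6.1 in controls and 80.8 CPM ± 10.4 in mutants for Foxp2, 65.6 ± 4.3 and 61.2 ± 3.2 for Foxp1 and 7.78 ± 0.20 and 7.96 ± 1.10 (SD, n = 3) for Foxp4. The spread of Foxp2 in the controls was 19.98 CPM before and 6.1 CPM after this step. Foxb1 was at 18.3 CPM ± 0.7 and 23.3 CPM ± 6.5, and its exact two-sided permutation p of 0.1 is the smallest that 3 against 3 libraries can give. The other exact p values were 0.3 or more at E14.5 and 0.5 or more at E18.5. At clustering resolution 2.0 (33 clusters, 83.0% of the cells) the log2 ratio of Foxb1 was 0.15 in place of 0.35 (17.9 and 19.9 CPM, exact p = 0.4). There it was Foxp1 that had the smallest exact p of 0.1 (66.1 and 60.8 CPM). The gene at that minimum thus changed when both the resolution and the cells covered changed. In the 26 genotype fits no gene of the 3 lists was called by edgeR, out of 198 values for other forkhead genes (4 with an unadjusted p under 0.05), 365 for corepressors and partners (9) and 76 for reported FOXP2 targets (6). By DESeq2 1 value was called, that of the ciliogenesis factor gene Foxj1 in E14.5 all sorted cells, where DESeq2 called 2.44% of all genes. With the replicate block 4 values of other forkhead genes and 1 of the partners were called. Foxo6, Foxj1, Foxn2 and Mta3 were called in E14.5 all sorted cells, where the block called 17.6% of all genes, and Foxo6 also in intermediate progenitor-like cells, where it called 1.4%.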

How the data were processed

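Per the labels and methods, the authors sequenced 10x Genomics 3′ v3.1 libraries, aligned reads to mm10 plus the WPRE sequence and deposited raw UMI counts for each gene in each barcode. The submitters' processing notes name Cell Ranger 5.0.1. Per the file headers, version 3.1.0 was used for E14.5 controls 1 and 2, and 5.0.1 for the 12 remaining libraries. Gene positions come from GENCODE M21.

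Barcodes needed 1000 or more genes and a mitochondrial share below 5%, and the top 7.5% by doublet score were removed in each library. The study's methods state 1% and refer to code for criteria by age, which was not used here. Clustering, separate for each stage, used scanpy 1.11.5 (Python 3.11.15, leidenalg 0.10.2) on 2000 variable genes, 30 components and 15 neighbors at resolution 1.0. The markers that name PN states and subtypes are those the study found on these libraries, and rebuilt names may differ from the study's. A name needed a mean z-score of 0.25 or more.

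UMIs were summed by library and cluster. Embryos were compared by edgeR 4.0.16 (R 4.3.3, quasi-likelihood test, TMM), so p-values measure the spread between embryos. A gene was tested where 10% or more of one group's cells had a UMI. Fits covered the 3 highest clusters for each member and stage, with 20 cells in every library, and states with 10. Named genes were the members, Atoh1, the 3 genes most correlated with each member and called genes of 3 lists; 1 of the correlated genes is not reported here. The members and lists were chosen with earlier results of these data known. Alternatives were DESeq2 1.42.0, no filter, a 10% mitochondrial limit, no doublet removal, resolution 2.0, E14.5 libraries of Cell Ranger 5.0.1 alone, each library left out and a replicate block. The tests were checked on simulated data. Shares of cells cover counting error only.

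The protocol in the labels gives each mutant a littermate control but does not state that equal replicate numbers mark a litter. Deviations from group means correlated within pairs at 0.53, 0.82 and 0.74 at E14.5 and at 0.78, 0.82 and 0.92 at E18.5, so the numbers were taken to pair the samples.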

Additional observations from a re-analysis of the deposited data

How the results depend on the processing

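Of 861 alternative values for the members, 857 were counted as unchanged, and 0 called values changed sign. That count was largely fixed in advance and is no measure of stability. Among the main values only the fall of Foxp2 between the stages was called. An uncalled value counted as unchanged unless it became called, whatever its sign. Values at equal makeup have no threshold and always counted as unchanged. The fall of Foxp2 between the stages was called under every alternative, between -2.34 and -1.94 on the log2 scale when 1 library was left out. For Foxp4 the same range was 0.20 to 0.47, it was called only without control 2 of E14.5, and it was 0.04 with a mitochondrial limit of 10%. The level of the highest Foxb1 cluster at E14.5 was 391 CPM at resolution 2.0, in a cluster of 253 cells, in place of 189 CPM. Which clusters of resolution 1.0 these cells came from was not followed. Without the filter on low genes Foxb1 in cluster 11 (1.02) and Foxp1 in cluster 26 (-0.78) were called, and the cause was not tested. Leaving out the second E14.5 pair, chosen after seeing the data, left 37 member values with 0 called and a lowest adjusted p of 0.45. The E14.5 ratio of Foxb1 at equal makeup was 0.35 on the log2 scale and 0.10 without mutant 2. Of the 861 alternative values, 109 had another sign than the uncalled value they belong to. At resolution 2.0, which covered 83.0% of the cells, the Foxb1 ratio was 0.15, and Foxp1 in place of Foxb1 had the smallest exact p of 0.1.

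With the replicate block, which pairs same-numbered embryos, all 65 member calls were the same, and 12 in place of 6 had an unadjusted p under 0.05. Over all genes the block also raised this count, for example from 115 to 702 of 9883 in E18.5 all sorted cells. It was 4209 of 10241 in E14.5 all sorted cells. In every other blocked fit it was at most 985 of 9184. The 12 of 65 for the members pool all fits, which share embryos, and are not read against shares of single fits. The differences over all E14.5 sorted cells were then 0.08 for Foxp2, -0.08 for Foxp1 and -0.20 for Foxp4, and the lowest adjusted p among the members was 0.15, for Foxp2 in cluster 6 (0.45, SE 0.08). Pairing moved the number of all genes called from 1 to 1800 in E14.5 all sorted cells and from 0 to 25 at E18.5. With the block 4 values of other forkhead genes were called, among them Foxo6, Foxj1 and Foxn2 in E14.5 all sorted cells, and 1 of the corepressors and partners, Mta3.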

Other observations

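Foxb2, a forkhead gene of the same subfamily as Foxb1, had too few cells with a UMI to pass the filter. With no filter it was lower in E18.5 than in E14.5 controls by the edgeR test (log2 difference -6.57, SE 0.83, adjusted p = 0.00012), next to -5.12 for Foxb1. B230323A14Rik, the antisense gene that overlaps Foxb1, had a difference of -5.58 (SE 0.58) in the same fit. Foxp3, the remaining Foxp gene, is known for regulatory T cells and was at most at 0.50 CPM in any cluster mean of the controls.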
